A study of Mus musculus with 9 samples.

Results

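The 9 genes described here were Spi1, Fli1, Runx1, Cebpa, Cebpb, Cebpd, Maf, Mitf and Csf1r. All but the last encode transcription factors of the myeloid lineage, and Csf1r encodes the receptor for the growth factor that keeps macrophages alive. They were chosen by name, and each name matched 1 of the 25494 genes in the deposited expression table. All 9 had a mean of at least 10 scaled reads, as did 13027 genes in total. The question was whether macrophage lines that carried different transgenes held these genes at the same levels.

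RNA abundance was measured by sequencing of total RNA depleted of rRNA in immortalized bone marrow-derived macrophages of TTP-deficient mice. TTP (tristetraprolin, gene Zfp36) binds AU-rich elements in the 3′ untranslated region (3′UTR) of mRNAs and promotes their decay. The cells carried the Zfp36tm1Pjb allele on a C57BL/6 background, had been differentiated with M-CSF, immortalized with hcmyc and hRasG12V, and sorted for CD11b and F4/80. A retroviral vector with a doxycycline-inducible promoter then supplied GFP, a GFP fusion of TTP (GFP-TTP), or GFP-TTP-AA, whose S52A and S178A changes remove the serines phosphorylated by the kinase MK2. All groups received doxycycline for 6 h and LPS, the bacterial lipopolysaccharide that activates macrophages, for 1 h, each at 1 µg/ml, so no library without either agent was analysed here. Each group had 3 libraries, which the labels call biological replicates, and whether a transduced line went through a single clone was not given in the sources used here. A difference between groups therefore cannot be told apart from one that the lines already had before this doxycycline treatment. The paper also describes a sort of transduced cells for GFP after doxycycline for 6 h. The lines may thus have met their transgene product before.

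Macrophage identity rests on a small set of lineage factors that act together. PU.1, the product of Spi1, is an ETS-family factor that opens enhancers in myeloid progenitors and binds the promoter of Csf1r. RUNX1 prepares the Spi1 and Csf1r loci for PU.1, and C/EBP factors work beside it, C/EBPα mainly in progenitors and C/EBPβ and C/EBPδ mainly in mature and activated macrophages. Maf factors restrain the self-renewal of macrophages, MITF drives lysosomal and osteoclast genes, and CSF1R transmits the M-CSF signal.

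The library values in the deposited table were not free measurements. The log2 ratio of same-numbered libraries of 2 groups was constant over the replicate numbers for each gene, apart from a library-wide factor, with a largest deviation of 7.3e-13. The table thus holds fitted means, made of a library factor, a replicate-number term and a group term. The 3 libraries of a group differ by the same factor in every group, no SD over replicates can be formed, and no p-value was computed. Each difference is given as a log2 difference of the group means with a 95% Poisson interval, which covers counting error only. Whether the fit had pulled the group terms toward 0 was not given in the sources used here. At low levels, though, the fitted differences were far smaller than counting error alone would give. For means below 1 the median size in GFP-TTP against GFP was 0.020, beside a median counting error of ± 4.85. Differences of genes with few reads may thus be understated, and the interval does not allow for that. A difference of at least 0.5 on the log2 scale was counted as past the size threshold, and each count is set beside the share of all 13027 genes past it. Column totals ran from 21482954 in GFP-TTP replicate 1 to 102613526 in GFP-TTP-AA replicate 3, and values are given as reads after scaling of the libraries to a common size.

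Zfp36 itself was examined first. Its scaled value was 1741, 1423 and 894 in GFP replicates 1, 2 and 3, 1794, 1461 and 921 in GFP-TTP, and 2796, 2278 and 1437 in GFP-TTP-AA. GFP-TTP exceeded GFP by 0.04 (-0.02 to 0.11), whereas GFP-TTP-AA exceeded GFP by 0.68 (0.63 to 0.74) and GFP-TTP by 0.64 (0.58 to 0.70). Reads of the disrupted gene and of the transgene cannot be told apart in this row, so the level gave no check of the GFP-TTP label. For protein rather than RNA, the paper reports from western blots that both fusions reached similar levels. The macrophage label was checked with 4 defining markers. F4/80, listed as Emr1, had group means of 16738 scaled reads in GFP, 9962 in GFP-TTP and 26614 in GFP-TTP-AA, and Itgam, the gene of CD11b, had 8644, 9044 and 9833. Cd68 had 9842, 9443 and 9945 scaled reads, and Cd14, the LPS co-receptor, had 23449, 25542 and 28491. These 4 markers were abundant in all 3 groups, whereas Mertk, another macrophage marker, had a mean of 18.5. Of 6 fibroblast markers found, 5 had means below 1, among them Col1a1 and Pdgfra, and Pdgfrb had 6.68. All 4 epithelial markers found, among them Epcam and Krt5, had means below 1.

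Most of the 9 genes differed by less than the size threshold between the lines. Of the 9, Cebpa alone passed the size threshold in GFP-TTP against GFP, where it was higher, and 5.18% of all genes passed. Cebpd alone passed in GFP-TTP-AA against GFP, where it was higher, beside 8.6% of all genes. In GFP-TTP-AA against GFP-TTP, 2 members passed, Cebpa lower and Cebpd higher, beside 13.2% of all genes. The median size of the 9 differences was 0.105, 0.168 and 0.374 in the 3 comparisons, against 0.129, 0.156 and 0.193 over all genes. The 3 comparisons share libraries, so these counts are not independent of each other.

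**Figure D1:**
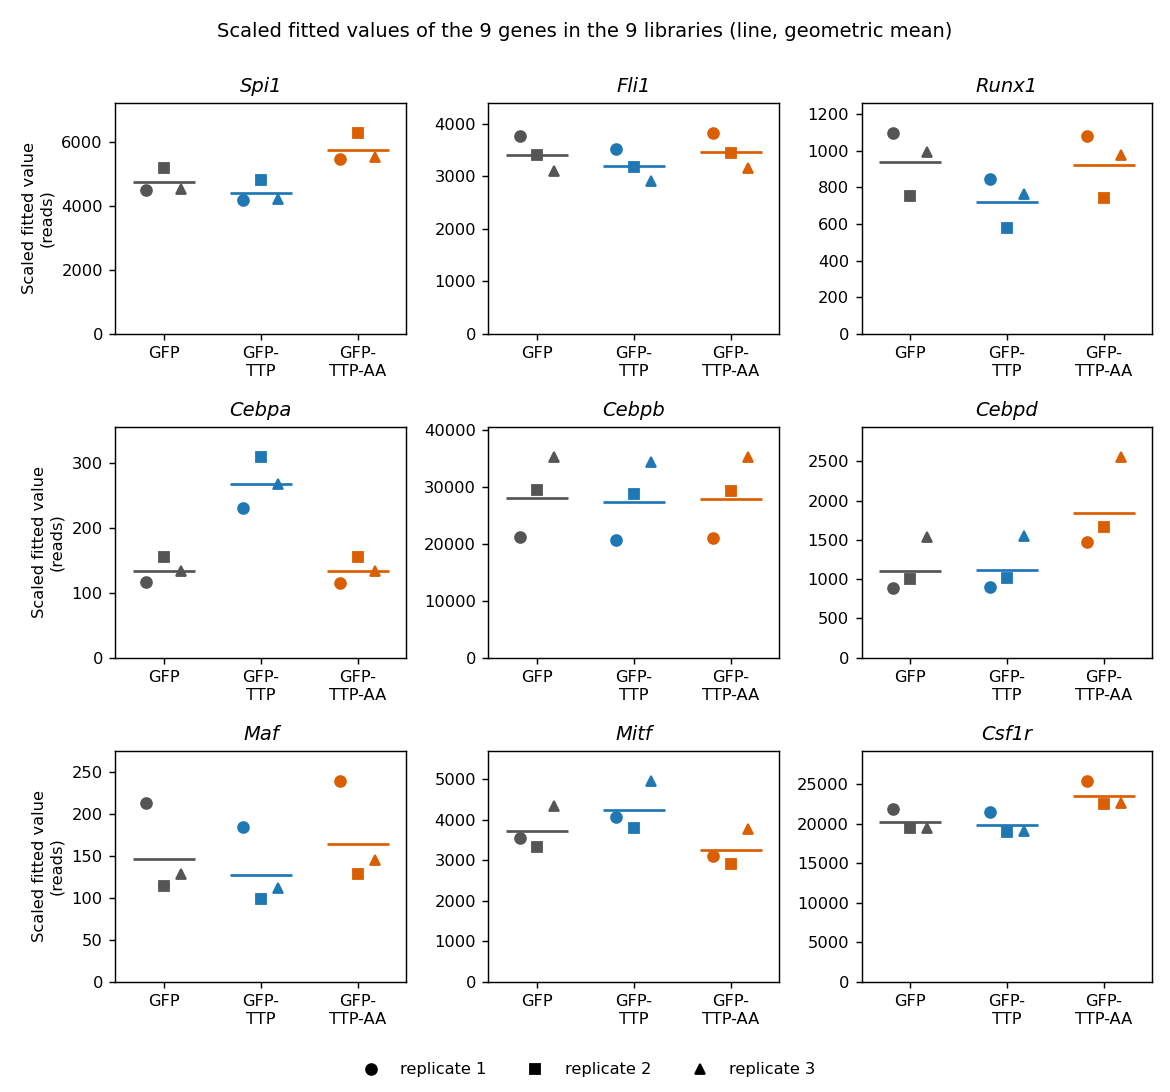
Scaled fitted values in reads (y axis, from 0) of the 9 genes in each library of the GFP, GFP-TTP and GFP-TTP-AA groups (x axis), with 1 symbol per replicate number and a line at the geometric mean. Cebpa stands higher in GFP-TTP, at 231 to 309, than in both other groups, while Cebpb covers nearly the same range in all 3.

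Whether libraries of different groups overlapped was a further measure of size, since the group term then had to exceed the range of the replicate-number terms. Cebpa did not overlap between GFP-TTP and GFP, as was the case for 19.6% of all genes. Spi1 and Csf1r did not overlap between GFP-TTP-AA and GFP, beside 25.1% of all genes. Between GFP-TTP-AA and GFP-TTP, 4 members did not overlap, Spi1 and Csf1r being higher and Cebpa and Mitf lower in GFP-TTP-AA, beside 31.3% of all genes.

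TTP and its mutant act on AU-rich sequence, so the 3′UTRs of the 9 genes were searched for TATTTAT, the core of the element that TTP binds. A gene was represented by its transcript of longest coding sequence in GENCODE M21 on GRCm38, read on its own strand. The heptamer occurred in 3 of the 9 genes, Cebpd, Mitf and Runx1, and in 26.1% of 16130 genes with a 3′UTR. The median 3′UTR of the 9 was longer, at 1669 bases against 900. Other sequences to which the paper reports binding, such as AUUUA and G-rich motifs, were not searched. The sites shown are thus only some of the places where the transgene products could meet these mRNAs. The heptamer is in capitals and the flanks are in lower case, 5′ to 3′ as DNA.
Cebpd, chr16:15889229-15889255, plus strand: gttggacattTATTTATtgtaacagaa
Mitf, chr6:98020368-98020394, plus strand: tttctcttcaTATTTATgtgggggggg
Mitf, chr6:98020695-98020721, plus strand: ggaatggtttTATTTATttcttttgtg
Runx1, chr16:92605099-92605125, minus strand: aatccctagaTATTTATgtatcttgat
Runx1, chr16:92603111-92603137, minus strand: ttcaagccccTATTTATaattttaaca
Runx1, chr16:92602280-92602306, minus strand: aactcaattgTATTTATgtatgtaaat
The Cebpd site and the second Mitf site lie within TTATTTATT, the nonamer with the strongest affinity for TTP. The Cebpd heptamer starts at base 1108 of a 3′UTR of 2900 bases, those of Mitf at bases 2203 and 2530 of 3174, and those of Runx1 at bases 540, 2528 and 3359 of 4189. No TATTTAT was found in the 3′UTRs of Spi1, Fli1, Cebpa, Cebpb, Maf or Csf1r, which says only that these letters do not occur in the transcripts read. Whether either protein binds these sites was not tested here. The study mapped RNA crosslinks of both proteins by crosslinking and immunoprecipitation (iCLIP) under the same treatment, and those data were not used.

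Spi1 encodes PU.1 (ENSMUSG00000002111, chromosome 2, 91082390 to 91115756, plus strand, GRCm38). It had 4492, 5181 and 4532 scaled reads in GFP, 4181, 4807 and 4219 in GFP-TTP, and 5450, 6270 and 5505 in GFP-TTP-AA. The order was GFP-TTP-AA, GFP, GFP-TTP, and the libraries of GFP-TTP-AA all lay above those of the other groups, which overlapped each other. GFP-TTP-AA was higher than GFP by 0.28 (0.25 to 0.31) and than GFP-TTP by 0.38 (0.35 to 0.41), and GFP-TTP differed from GFP by -0.10 (-0.14 to -0.07). These differences were below the size threshold. In size they exceeded those of 73.8%, 78.2% and 42.2% of all genes. After the median of chromosome 2 was subtracted, the difference between GFP-TTP-AA and GFP-TTP was 0.47.

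Fli1, an ETS-family relative of PU.1 that acts in blood stem cells and megakaryocytes (ENSMUSG00000016087, chromosome 9, 32422204 to 32542861, minus strand), varied least after Cebpb. Its scaled reads were 3760, 3402 and 3109 in GFP, 3528, 3182 and 2918 in GFP-TTP, and 3824, 3451 and 3166 in GFP-TTP-AA. All 3 groups overlapped. The differences were -0.09 (-0.14 to -0.05) for GFP-TTP against GFP, 0.02 (-0.01 to 0.06) for GFP-TTP-AA against GFP and 0.12 (0.08 to 0.16) for GFP-TTP-AA against GFP-TTP. The range over replicate numbers was 0.27, against a range of 0.12 over groups.

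Runx1, the DNA-binding subunit of core-binding factor (ENSMUSG00000022952, chromosome 16, 92601466 to 92826149, minus strand), was lowest in GFP-TTP. It had 1097, 754 and 992 scaled reads in GFP, 844, 578 and 763 in GFP-TTP, and 1080, 740 and 978 in GFP-TTP-AA. GFP and GFP-TTP-AA were close, with a difference of -0.02 (-0.09 to 0.05), and all 3 groups overlapped. After the median of chromosome 16 was subtracted this difference was -0.13. GFP-TTP was below GFP by a log2 difference of -0.38 (-0.46 to -0.30), a size above that of 90.9% of all genes although below the threshold. GFP-TTP-AA exceeded GFP-TTP by 0.36 (0.28 to 0.44), or by 0.25 after the same subtraction. Runx1 carries 3 of the 6 heptamers shown above, and 106 exon bases overlap Gm26626 on the other strand.

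The C/EBP genes encode leucine-zipper factors that dimerize with each other. Cebpa (ENSMUSG00000034957, chromosome 7, 35119293 to 35121928, plus strand) encodes C/EBPα, which pairs with PU.1 in the commitment of progenitors and restrains their division. It had 116, 155 and 134 scaled reads in GFP, 231, 309 and 267 in GFP-TTP, and 115, 154 and 133 in GFP-TTP-AA. Every GFP-TTP library lay above every library of both other groups, which had almost equal values. The difference was 0.99 (0.82 to 1.17) for GFP-TTP against GFP, a 1.99-fold higher level, and -1.001 (-1.16 to -0.84) for GFP-TTP-AA against GFP-TTP. In size these exceeded 98.6% and 96.8% of all genes. GFP-TTP-AA and GFP differed by -0.01 (-0.19 to 0.18). In bulk RNA a larger share of cells with the transcript and more transcript per cell cannot be told apart.

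Cebpb (ENSMUSG00000056501, chromosome 2, 167688915 to 167690418, plus strand) encodes C/EBPβ, a factor of inflammatory gene induction, and was the most abundant of the 9. Its scaled reads were 21200, 29579 and 35309 in GFP, 20699, 28791 and 34476 in GFP-TTP, and 21134, 29409 and 35234 in GFP-TTP-AA. The groups overlapped almost fully, and their range of 0.04 was the smallest of the 9 genes, against a range over replicate numbers of 0.74. The differences were -0.04 (-0.05 to -0.02) for GFP-TTP against GFP, -0.01 (-0.02 to 0.01) for GFP-TTP-AA against GFP and 0.03 (0.02 to 0.04) for GFP-TTP-AA against GFP-TTP. The middle one turned to 0.02 with upper-quartile scaling.

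Cebpd (ENSMUSG00000071637, chromosome 16, 15887286 to 15891031, plus strand) encodes C/EBPδ, an acute-phase factor that LPS induces and that amplifies inflammatory transcription. It had 887, 1004 and 1534 scaled reads in GFP, 898, 1013 and 1553 in GFP-TTP, and 1476, 1666 and 2556 in GFP-TTP-AA. GFP and GFP-TTP were level, with a difference of 0.02 (-0.05 to 0.09). GFP-TTP-AA was higher than GFP by 0.73 (0.68 to 0.79), or 1.66-fold, and than GFP-TTP by 0.72 (0.66 to 0.78), or 1.64-fold. In size these exceeded 96.5% and 93.5% of all genes. The libraries still overlapped, because GFP-TTP-AA replicate 1 lay below replicate 3 of both other groups and the range over replicate numbers was 0.79. The median of the 404 measured genes on chromosome 16 was 0.11 in both comparisons, and after its subtraction the differences of Cebpd were 0.63 and 0.61.

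Since the 3 C/EBP genes differ in length, their levels were compared as scaled reads per kb of exon. Cebpb made up 98.2% of their sum in GFP, 97.8% in GFP-TTP and 97.2% in GFP-TTP-AA. The share of Cebpa was 0.267% in GFP, 0.544% in GFP-TTP and 0.264% in GFP-TTP-AA, and that of Cebpd was 1.56%, 1.61% and 2.57%. The sum itself was 19018, 18612 and 19145 scaled reads per kb. The differences of Cebpa and Cebpd thus lay in the less abundant of these 3 genes, whose summed level was close in the groups.

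**Figure D2:**
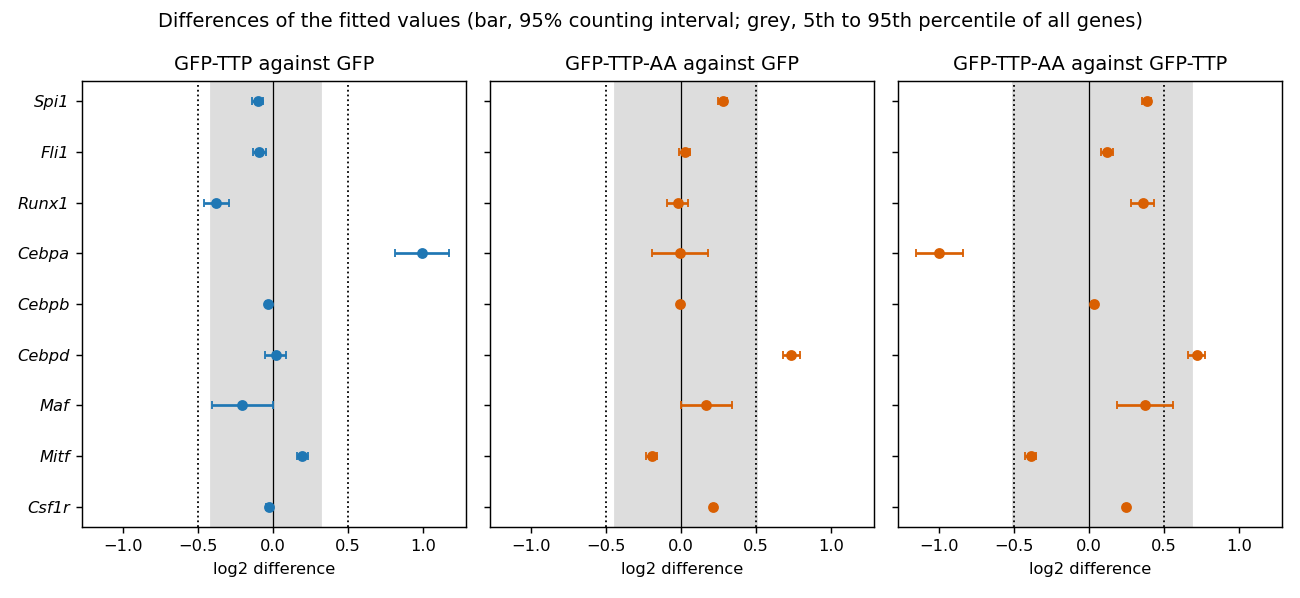
Log2 differences of the group means (x axis) of the 9 genes in the 3 comparisons, with bars for the 95% counting interval, dotted lines at the size threshold of 0.5 and grey from the 5th to the 95th percentile of all genes. Cebpa lies beyond the grey band on the right in GFP-TTP against GFP and on the left in GFP-TTP-AA against GFP-TTP, and Cebpd lies beyond it in both comparisons with GFP-TTP-AA.

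Maf encodes c-MAF (ENSMUSG00000055435, chromosome 8, 115682942 to 115707794, minus strand), a factor of mature and IL-10-producing macrophages, and had the lowest level per kb of the 9. It had 213, 114 and 129 scaled reads in GFP, 185, 99.0 and 112 in GFP-TTP, and 240, 128 and 145 in GFP-TTP-AA. The groups overlapped, and the range over replicate numbers was 0.90. The differences were -0.21 for GFP-TTP against GFP, 0.17 for GFP-TTP-AA against GFP and 0.37 (0.19 to 0.56) for GFP-TTP-AA against GFP-TTP. The intervals of the first and second reached from -0.41 to -0.00019 and from -0.0016 to 0.34. Limits this close to no difference were not read as giving a direction.

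Mitf (ENSMUSG00000035158, chromosome 6, 97807052 to 98021349, plus strand) was ordered opposite to Spi1, Csf1r and Maf. Its scaled reads were 3553, 3334 and 4329 in GFP, 4069, 3806 and 4957 in GFP-TTP, and 3100, 2901 and 3780 in GFP-TTP-AA. GFP-TTP was highest and GFP-TTP-AA lowest, and the libraries of these groups just failed to overlap while GFP overlapped both. The differences were 0.19 (0.16 to 0.23) for GFP-TTP against GFP, -0.20 (-0.23 to -0.16) for GFP-TTP-AA against GFP and -0.39 (-0.43 to -0.36) for GFP-TTP-AA against GFP-TTP. All were below the size threshold.

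Csf1r (ENSMUSG00000024621, chromosome 18, 61100598 to 61132149, plus strand) is a direct target of PU.1 and the receptor tyrosine kinase for M-CSF and IL-34. It had 21891, 19429 and 19486 scaled reads in GFP, 21462, 18989 and 19104 in GFP-TTP, and 25423, 22504 and 22653 in GFP-TTP-AA. As for Spi1, the GFP-TTP-AA libraries all lay above those of both other groups, which overlapped each other. GFP-TTP-AA was higher than GFP by 0.21 (0.20 to 0.23) and than GFP-TTP by 0.25 (0.23 to 0.26), below the size threshold, and GFP-TTP differed from GFP by -0.03 (-0.05 to -0.01). In size these exceeded 63.0%, 60.2% and 12.8% of all genes. Its range over replicate numbers, 0.17, was the smallest of the 9.

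Of 10402 genes with a mean of at least 100, those whose pair of differences against GFP lay nearest to that of Csf1r were Ttyh2, Ftl1 and Gm26448. Ttyh2 differed by -0.03 in GFP-TTP and 0.22 in GFP-TTP-AA, a Euclidean distance of 0.00467. Ftl1, the ferritin light chain, differed by -0.03 and 0.21, and Gm26448 by -0.03 and 0.21, at distances of 0.00534 and 0.00670. Likeness over 2 fitted differences is a description and carries no test.

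**Figure D3:**
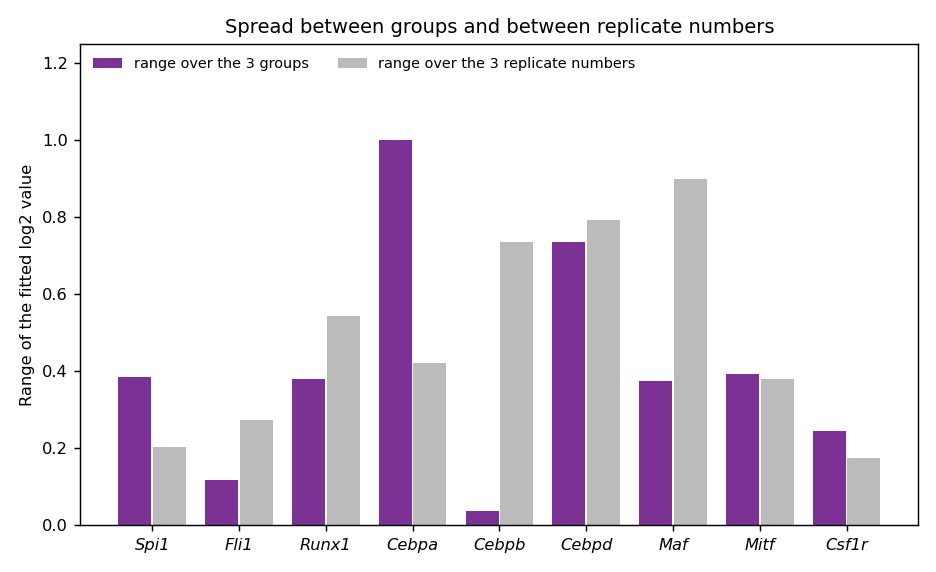
Range of the fitted log2 value (y axis, from 0) of each of the 9 genes over the 3 group means and over the 3 replicate-number terms. The group range exceeds the replicate-number range for Spi1, Cebpa, Mitf and Csf1r, with the widest gap for Cebpa at 1.00 against 0.42.

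Compared per kb of exon, the 9 genes stood in the same order in GFP and GFP-TTP-AA, and 1 pair of neighbours changed places in GFP-TTP. Cebpb led with 18671 scaled reads per kb in GFP, followed by Csf1r with 3505, Spi1 with 1753 and Fli1 with 979. Mitf had 599.6, Cebpd 296, Runx1 77.8, Cebpa 50.8 and Maf 17.8 in GFP. In GFP-TTP, Cebpa at 101 stood above Runx1 at 59.8. This order depends on the length used. The summed exons of Runx1 span 12025 bases and its transcript read above 5861, against 2636 and 2626 for Cebpa. In GFP-TTP-AA, Cebpd at 493 came nearer to Mitf at 523, with 76.6 for Runx1 and 50.6 for Cebpa. Among all genes the mean scaled values of Cebpb and Csf1r lay at percentiles 99.1 and 98.6, and those of Cebpa and Maf at 25.2 and 23.6.

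Over all measured genes the replicate-number terms had a median range of 0.33. Those of Maf, Cebpd, Cebpb and Runx1 were wider, at 0.90, 0.79, 0.74 and 0.54. Replicate number 1 had the lowest Cebpb and Cebpd in every group, with terms of -0.40 and -0.32, and the highest Maf, with 0.54. The terms of one number are shared by the groups in the fit, so they move no difference between groups. What the number stood for cannot be told from the values, although the study's model held the date of library preparation.

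Other regulators of myeloid cells were described from a list of 49 genes, of which 43 had a mean of at least 10. In GFP-TTP against GFP, 2 were higher and 4 lower past the size threshold, which 5.18% of all genes passed, with a list median of -0.12 against 0.01 over all genes. The lowest were Klf2, a factor of endothelial and quiescent myeloid cells, at -0.72, and Pparg at -0.67. Gfi1 and Batf3 were higher by 0.54 and 0.50, and the counting error of Gfi1, ± 0.60, exceeds its difference.

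More genes of this list passed the threshold in the comparisons with GFP-TTP-AA. Against GFP, 8 were higher and 3 lower past the threshold, beside 8.6% of all genes, of which 668 were higher and 452 lower. Against GFP-TTP, 9 were higher and 3 lower, beside 13.2% of all genes, of which 1048 were higher and 671 lower. The list medians were 0.02 and 0.16 beside -0.01 and -0.03 over all genes. Pparg, the lipid-sensing nuclear receptor of alveolar macrophages, had means of 32.8, 20.7 and 159 scaled reads in the 3 groups, and was higher in GFP-TTP-AA by 2.27 against GFP and 2.94 against GFP-TTP. Nr1h3, the liver X receptor of macrophages, had 223, 160 and 587 and was higher by 1.40 and 1.87. Ets1 was higher by 1.92 and 2.14 from a low level of 13.9 in GFP. Klf2 (-0.73), Lmo2 (-0.64) and Runx2 (-0.52) were the lowest against GFP, and Batf3 (-0.98), Lmo2 (-0.71) and Gfi1 (-0.70) the lowest against GFP-TTP. Lmo2, a scaffold of blood progenitor complexes, was abundant throughout, at 17645, 18487 and 11320 scaled reads.

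The ligands and signalling partners of CSF1R were described from a list of 25 genes, of which 24 were measured. In GFP-TTP against GFP, 1 was higher and 1 lower past the threshold, and in each comparison with GFP-TTP-AA 3 were higher and 0 lower. Over all genes 5.18%, 8.6% and 13.2% passed in the 3 comparisons. List medians were -0.06, 0.01 and 0.11. Csf1, the gene of M-CSF, had 6466, 6217 and 6484 scaled reads in GFP, GFP-TTP and GFP-TTP-AA, with differences of -0.06, 0.00 and 0.06. Src was higher than in GFP by 0.59 in GFP-TTP and 0.82 in GFP-TTP-AA. Socs1, a feedback inhibitor of cytokine signalling, was higher in GFP-TTP-AA by 1.30 and 1.51, and Fgr by 1.08 and 0.80 from a low level of 17.6 in GFP. Ccnd1, the cyclin D1 gene induced by M-CSF, was at -0.32 and -0.40 in GFP-TTP-AA, and the adaptor Grb2 at -0.35 in both.

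Among 14 measured macrophage markers, 2 were lower in GFP-TTP than in GFP past the threshold and 0 higher, while 3 were higher in GFP-TTP-AA than in GFP and 4 than in GFP-TTP, with 0 lower. These counts stand beside 5.18%, 8.6% and 13.2% of all genes. Their medians were -0.17, 0.17 and 0.28. Fcgr1, a receptor for immunoglobulin G, and Emr1 were lower in GFP-TTP by log2 differences of -1.20 and -0.75. Emr1 was higher in GFP-TTP-AA by 0.67 against GFP and 1.42 against GFP-TTP, and Cybb, the NADPH oxidase subunit, by 0.74 and 1.00. Emr1 encodes the F4/80 antigen used in sorting the cells before transduction.

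**Figure D4:**
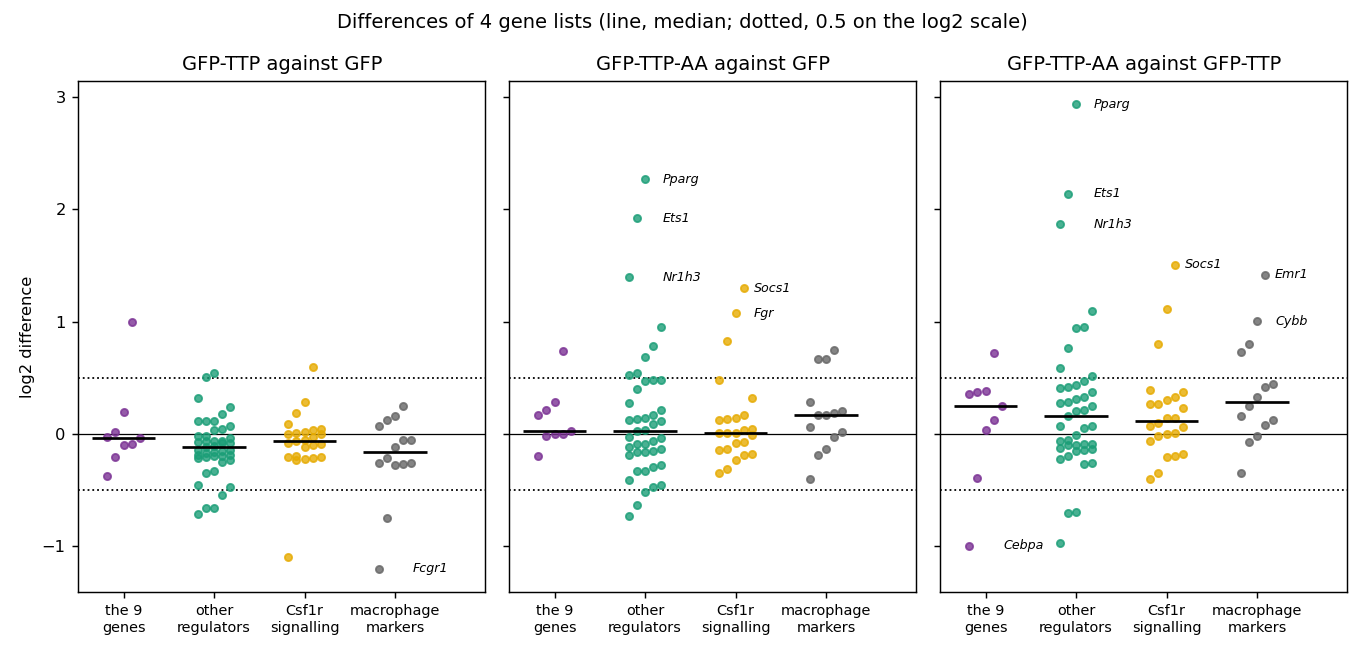
Log2 differences (y axis) of the measured genes of 4 lists, with 1 point per gene, a line at each list's median and dotted lines at 0.5 in either direction, in the 3 comparisons. Pparg, Ets1 and Nr1h3 lie above the 9 genes in both comparisons with GFP-TTP-AA, and the macrophage marker Fcgr1 lies lowest in GFP-TTP against GFP.

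The summed markers of each other cell type lay far below the summed macrophage markers, and some of these sums differed between groups. For the 7 of 11 neutrophil markers found, the summed level ran from 198 to 286 scaled reads per kb in GFP. It ran from 198 to 288 in GFP-TTP and from 311 to 464 in GFP-TTP-AA. Elane, Mpo and Ltf had means below 1, and S100a8, which macrophages also express, had a mean of 174. Csf3r, Camp and Prtn3 had means of 16.6, 13.9 and 10.4. In GFP-TTP-AA against GFP, S100a8 and Camp were higher by 0.75 and 0.17, and Prtn3 and Csf3r were at -0.29 and -0.15. For 5 of 8 erythroid and megakaryocyte markers the sum ran from 1172 to 1242 in GFP, 635 to 675 in GFP-TTP and 1115 to 1186 in GFP-TTP-AA. Here Gata1 was below 1, and Pf4, a chemokine gene that macrophages express too, had a mean of 717. For 7 of 9 dendritic cell markers the sums were 7066 to 9435, 6538 to 8703 and 7230 to 9630, with Siglech and Clec9a below 1. Bst2, an interferon-inducible gene that macrophages also express, made up most of these sums, with a mean of 7152 scaled reads. Flt3, a receptor of dendritic cell precursors, had a mean of 235, and Zbtb46, a factor of classical dendritic cells, was lower in GFP-TTP-AA, at -1.12 against GFP and -1.08 against GFP-TTP. The 8 lymphocyte and 4 mast cell markers found summed to at most 36.7 and 10.4 scaled reads per kb in any library. Cd79a, Cd8a, Fcer1a and Ms4a2 had means below 1. Gata3, with a mean of 112 scaled reads, made up most of the lymphocyte sum. The lymphocyte marker Ebf1 and the mast cell marker Hdc had means of 18.5 and 19.7. The macrophage markers summed to between 381294 and 706480. Lyz2, at 449495 scaled reads per kb in GFP, made up most of that sum. Tyrobp and Cd14 had 35972 and 13539 there, and Emr1 had 5169, below Bst2 at 8003.

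Exons of 6 of the 9 genes overlap a gene on the other strand, and whether strand was used in the counting was not given in the sources used here. The overlap was 51 bases for Cebpa with Gm45091, 312 for Cebpb with Tmem189, 562 for Cebpd with Spidr, 873 for Csf1r with Hmgxb3 and 440 for Maf with Gm15655. Spi1, Fli1 and Mitf overlap none in GENCODE M21. The study mapped its reads with a different annotation, whose overlaps were not examined here. Genes at low levels have fitted differences close to 0, with a median size of 0.020 in GFP-TTP against GFP for means below 1, where the median counting error was ± 4.85. Cebpa and Maf, at means of 179 and 152, are the lowest of the 9.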

How the data were processed

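RNA was sequenced in 9 libraries, 3 per group, with groups and replicate numbers taken from the sample titles. Per the labels and the study's methods, the authors aligned single-end reads to GRCm38 with TopHat (TopHat2 2.0.12 in the submitters' processing notes), allowing up to 2 placements per read, counted them per gene with HTSeq and fitted DESeq2 1.6.3 with library date and condition as terms. The deposited signal values, named normalized counts, proved to be fitted means of that model on the scale of each library's reads. The deposited comparison tables hold the authors' fold changes, standard errors, test statistics and p-values, which were not used, and the authors' mean normalized signal over all libraries, which was 28356 for Cebpb, 21117 for Csf1r and 170 for Maf. All 9 genes were in each of these tables. The number of columns with values of no mapped sample was 0.

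From the fitted values, library factors were set by the median of ratios (0.609 to 2.84), repeated gene identifiers among the 25504 rows were counted once, and genes with a mean of at least 10 scaled reads were kept. A difference was that of the mean log2 scaled values, with no pseudocount and with a 95% interval from Poisson counting error of the summed reads. Summed reads weigh deeper libraries more than that mean does, so the interval is too narrow where depths differ. The planned limma fit was not made, since no scatter between replicates exists. The steps were run on simulated data without counting noise, which checks the arithmetic only and not the intervals or the threshold. Levels per kb used the summed exon length of GENCODE M21, and 3′UTRs came from its coding and exon features on GRCm38. The study mapped its reads with a different annotation, whose exon lengths can differ, so levels per kb are approximate. Python 3.11.15, numpy 2.4.6, pandas 2.3.3 and matplotlib 3.10.9 were used.

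The members and gene lists were chosen with earlier results of these data known. Named were the 9 genes, Zfp36, per list and comparison up to 3 of the largest differences in each direction among measured genes, 4 defining macrophage markers and the 3 genes nearest to Csf1r. Csf1, Lmo2's levels, further macrophage markers and single markers of other cell types were added for their role or level. Some genes of the lists are counted but not reported by name here. Alternatives were other library scalings, pseudocounts, filters and thresholds, removal of chromosome medians, and removal of a trend on GC content and length.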

Additional observations from a re-analysis of the deposited data

How the results depend on the processing

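No paired analysis was possible because the values per library came from a fit and carry no scatter, and differences within each replicate number equal the reported ones. For the same reason leaving out a replicate number in all groups changes no difference by construction, which says nothing about stability. Under total or upper-quartile scaling, a pseudocount of 1 or 5, no filter, removal of chromosome medians and removal of a GC and length trend, no member crossed the size threshold of 0.5. The median of all genes lay within 0.03 of 0 under each scaling. Signs turned only for values near 0, namely Cebpa, Cebpb and Runx1 in GFP-TTP-AA against GFP (0.02, 0.02 and 0.00 under upper-quartile scaling) and Cebpb there after chromosome medians were removed (0.04). A mean of at least 100 left 409, 703 and 1131 genes past the threshold in GFP-TTP against GFP, GFP-TTP-AA against GFP and GFP-TTP-AA against GFP-TTP, in place of 675, 1120 and 1719, because fewer genes were tested. A threshold of 0.3 gave 1899, 3055 and 4083 genes, with 2, 1 and 6 of the 9 members. A threshold of 1 gave 175, 193 and 414 genes, with 0, 0 and 1 members. Counting intervals cover counting error only, and the spread between cultures was not measurable from these values.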
